A study of Mus musculus with 10 samples.

Results

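The genes described here encode the protein-folding machinery of the endoplasmic reticulum (ER), the quality-control system that removes proteins that fail to fold, and the sensors of the unfolded protein response. The 31 genes were chosen by name from known function, and all 31 had at least 1 probe assigned to them through the RefSeq accession that the array gives. They were read among 15089 genes measured in liver RNA of 10 male mice of the inbred strain C57BL/6J. The HFD ethanol group held 5 mice on a 60% high-fat diet for 4 months that drank ethanol in their water for the last 3 months, with a daily intake of 5 g/kg during week 1 of ethanol and 10 g/kg later. The HFD control group held 5 mice on the same diet for 4 months without ethanol. No group on standard chow is part of the comparison, which concerns ethanol on top of a fat-rich diet. The mice were bought at 7 weeks of age, and the 5 per group were taken at random from 10. Each mouse was measured on its own 1-colour Agilent array.

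Secreted and membrane proteins enter the ER through the Sec61 channel, fold with the help of HSP70 and HSP90 chaperones, lectins and disulfide isomerases, and are sent back to the cytosol for degradation if folding fails. When unfolded proteins build up, the membrane sensors IRE1 (Ern1), PERK (Eif2ak3) and ATF6 raise the output of chaperones and degradation factors and slow translation. Hepatocytes secrete most plasma proteins and carry a large ER, and ER stress has been studied in both fatty liver and alcohol-fed rodents.

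Many chaperone genes of this response are switched on through the ER stress response element (ERSE), a pair of short boxes bound by the factor NF-Y and by ATF6 or XBP1. It was searched as CCAAT, then 9 bases of any kind, then CCACG, and the windows searched ran from 250 bases before to 50 bases after the gene start, on both strands, in RefSeq sequence of build GRCm38.p6. Of the 31 genes, 26 had a window. An ERSE was found in 9 of them (34.6%), Hspa5, Hsp90b1, Dnajc3, Calr, Canx, Pdia6, Creld2, Syvn1 and Derl3, while 0.119% of all 32851 windows held it. The related ERSE-II, searched as ATTGG, then 1 base of any kind, then CCACG, ends in the same letters as the ERSE and was found in Herpud1 and Dnajb11 and in 0.0365% of all windows. Only exact matches were counted, so copies with a changed letter were left out. The window of Hspa5, the central chaperone, held 1 exact match to the ERSE, and that of Hsp90b1 held 2. Both windows are shown for the 250 bases before the start, 5′ to 3′ on the strand of the gene, with the matched ERSE in capitals. Where the element lies on the opposite strand it reads CGTGG first.
Hspa5, chr2:34771840-34772089, + strand: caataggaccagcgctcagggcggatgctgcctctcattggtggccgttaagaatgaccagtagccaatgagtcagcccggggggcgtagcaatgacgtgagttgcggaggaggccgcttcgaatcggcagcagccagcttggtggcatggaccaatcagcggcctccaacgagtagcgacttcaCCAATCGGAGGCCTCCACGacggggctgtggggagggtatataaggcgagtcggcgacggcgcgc
Hsp90b1, chr10:86705445-86705694, - strand: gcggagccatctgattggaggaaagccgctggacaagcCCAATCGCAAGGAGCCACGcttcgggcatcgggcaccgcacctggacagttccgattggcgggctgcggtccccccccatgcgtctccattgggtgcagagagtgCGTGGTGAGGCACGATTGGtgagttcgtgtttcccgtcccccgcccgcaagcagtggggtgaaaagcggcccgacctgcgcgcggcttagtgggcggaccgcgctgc

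The single elements of the other genes are shown with 15 bases on each side, since these are the members whose values by mouse are set against the rest below. Capitals mark the ERSE, or the ERSE-II in Herpud1.
Calr, chr8:84847060-84847108, - strand: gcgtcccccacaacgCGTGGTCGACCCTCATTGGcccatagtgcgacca
Canx, chr11:50325785-50325833, - strand: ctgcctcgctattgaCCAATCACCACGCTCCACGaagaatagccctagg
Pdia6, chr12:17266476-17266524, + strand: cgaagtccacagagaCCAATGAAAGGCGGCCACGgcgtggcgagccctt
Creld2, chr15:88819505-88819553, + strand: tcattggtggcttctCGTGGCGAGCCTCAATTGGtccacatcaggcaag
Dnajc3, chr14:118937812-118937860, + strand: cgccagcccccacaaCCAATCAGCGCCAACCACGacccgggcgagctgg
Syvn1, chr19:6046517-6046565, + strand: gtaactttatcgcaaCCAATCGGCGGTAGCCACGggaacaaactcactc
Derl3, chr10:75893227-75893275, + strand: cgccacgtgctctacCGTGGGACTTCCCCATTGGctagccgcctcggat
Herpud1, chr8:94386362-94386402, + strand: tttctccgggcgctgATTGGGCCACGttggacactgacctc

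In Dnajb11 the ERSE-II began 7 bases after the start and is not shown. The unfolded protein response element core TGACGTGG was found in 0 of the 26 windows, against 0.676% of all windows. The core of the ATF4 composite site, TTGCATCA, was found in Herpud1 and in 0.895% of all windows. A match of letters is a description of the window and not evidence of binding in these livers.

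None of the 31 genes passed an adjusted p of 0.05 for ethanol in limma with Benjamini-Hochberg adjustment over all genes, where 3 of 15089 (0.0199%) did. At an unadjusted p under 0.05 there were 2 of 31, Derl1 and Derl2, where 13.3% of all genes reached it, and in 0 of 31 did the 5 ethanol values lie apart from the 5 control values, where 3.05% of all genes did (1.94% higher and 1.11% lower with ethanol). The log2 fold change, ethanol over control, was above 0 for 26 of the 31 genes, beside 56.4% of all genes. Its median was 0.06 for the 31 genes and 0.03 for all genes. The split of 26 higher and 5 lower was 14 and 17 with quantile normalization, where 47.6% of all genes were higher. It was 20 and 11 with normexp background correction (56.5% of all genes higher) and 22 and 9 in the authors' deposited log2 values (53.7%). A common direction was thus not stable. The split was 15 and 16 without ethanol replicate 2 (54.8% of all genes higher), and 17 and 14 without ethanol replicate 3 (57.7%). Within slide 1, with 1 ethanol and 2 control mice, 13 of 31 were above 0 (median -0.04), beside 56.7% of all genes. Within slide 3, with 4 ethanol mice and 1 control mouse, 23 of 31 were above 0 (median 0.15), beside 47.9% of all genes. The 95% confidence interval lay between -1 and 1, a doubling or halving, for 30 of the 31 genes and was wider for Derl3. In whole-liver RNA a change in the share of a cell type and a change in RNA per cell cannot be told apart.

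**Figure D1:**
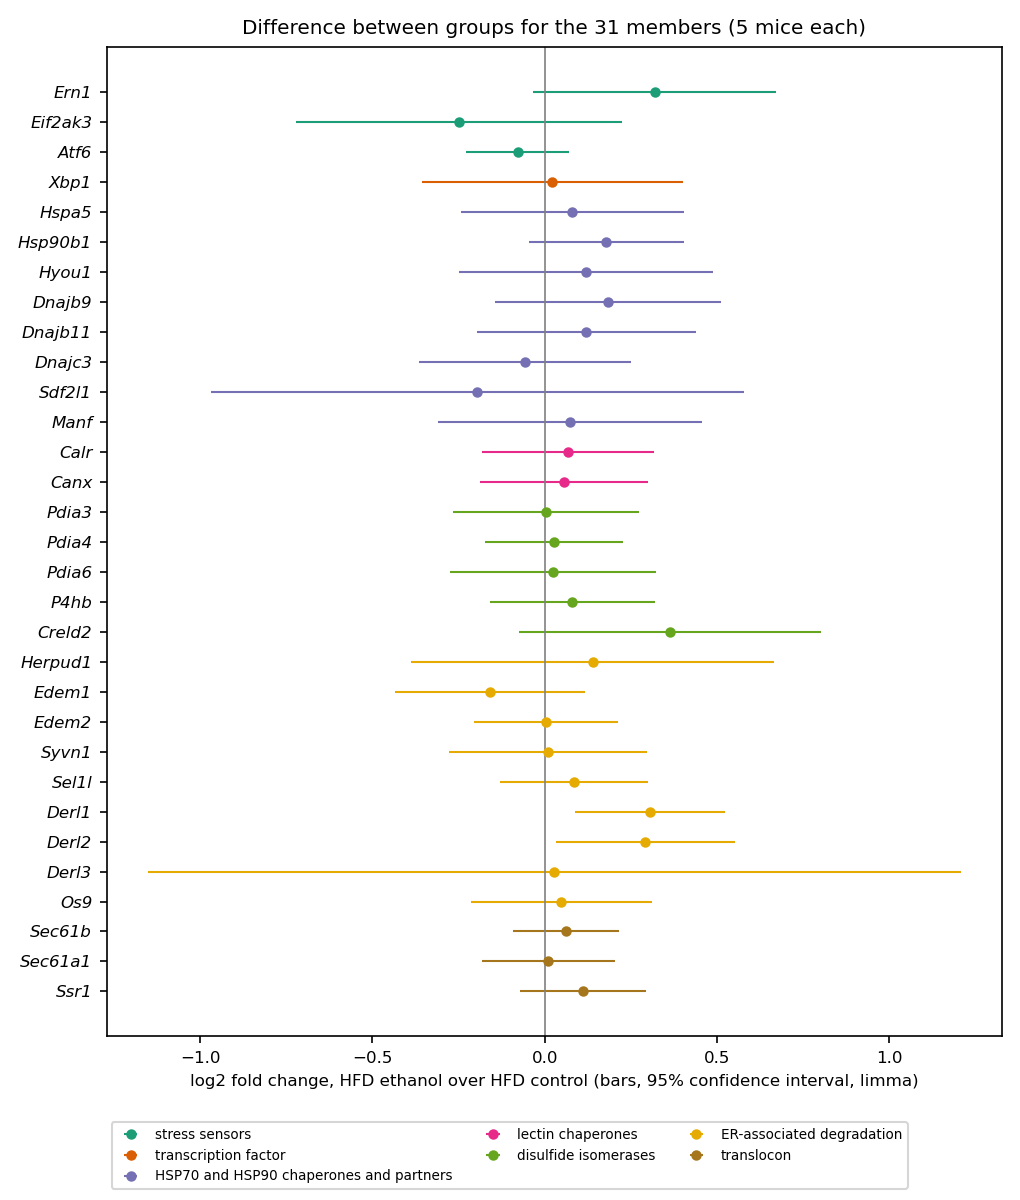
Log2 fold change of each of the 31 genes, HFD ethanol over HFD control, with the 95% confidence interval from limma (5 mice per group). Points are coloured by role. The intervals of Derl1 and Derl2 lie above 0, the others include 0, and that of Derl3 is the widest, from -1.15 to 1.21.

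The values spread more widely among the ethanol mice, but not once the arrays of ethanol replicates 2 and 3 were left out. These 2 mice were singled out after their values were seen, and dropping the highest mice narrows a spread by itself. The counts for them below describe the pattern and do not test it. The SD within the ethanol group exceeded that within the control group for 26 of 31 genes, beside 59.4% of all genes. By the median deviation from the control mean, ethanol replicates 2 and 3 were high and ethanol replicate 1 was low in chaperones, lectins and isomerases. Ethanol replicate 1 stood at -0.25, -0.18 and -0.14 in these roles. Control mice ran from -0.19 to 0.14, from -0.17 to 0.15 and from -0.11 to 0.08. Control replicate 2, on the same slide as ethanol replicate 1, was nearly as low, at -0.19, -0.17 and -0.10. Ethanol replicate 2 lay above all 5 control mice for 19 of 31 genes (30% of all genes) and below them for 2 (21.1% of all genes). Ethanol replicate 3 lay above them for 20 (25% of all genes) and below for 2 (26.9% of all genes). Ethanol replicate 1 lay below all 5 controls for 13 of 31 genes (17.8% of all genes) and above them for 0 (21.8% of all genes). Ethanol replicate 4 lay above all controls for 4 genes (21.6% of all genes) and below them for 3 (14.3%), and ethanol replicate 5 above for 5 (21.9%) and below for 7 (17.4%). Either ethanol replicate 2 or 3 was the highest of the 10 mice for 25 of 31 genes, beside 30.1% of all genes, and both took the top places for 13, beside 10.6% of all genes. The 13 genes were Xbp1, Hspa5, Hsp90b1, Dnajb11, Dnajc3, Manf, Calr, Canx, Pdia3, P4hb, Creld2, Derl1 and Os9, which include both lectins, 5 of the 8 chaperones and 3 of the 5 isomerases but no sensor and no translocon gene. These genes belong to 1 regulated response and are not independent of each other.

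The arrays of ethanol replicates 2 and 3 were the only 2 arrays in column 1 of their slide, and that of ethanol replicate 1 lay in column 3 of the same slide. Without the arrays of ethanol replicates 2 and 3 the median log2 fold change of the 31 genes was -0.05, with 12 of 31 above 0 (56.2% of all genes). The SD was then larger in ethanol for 13 of 31 (44.1% of all genes). That comparison sets fewer ethanol than control mice against each other, and the arrays dropped held the highest values for most of the 31 genes. Control replicates 1, 4 and 5 lay in column 4, which held no ethanol mouse, and column 1 held no control mouse. Column and group were thus partly confounded. A covariate for array column, fitted as a straight line over the columns, cannot fully separate them. The part of the array position in the pattern was not tested. With 1 mouse left out at a time, the SD was larger in ethanol for 23 to 28 of the 31 genes. The share of spots well above background was 58.9% and 58.4% for ethanol replicates 2 and 3, 57.7% for ethanol replicate 1, 57.2% and 58.0% for ethanol replicates 4 and 5, and 55.5% to 59.1% in control mice.

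**Figure D2:**
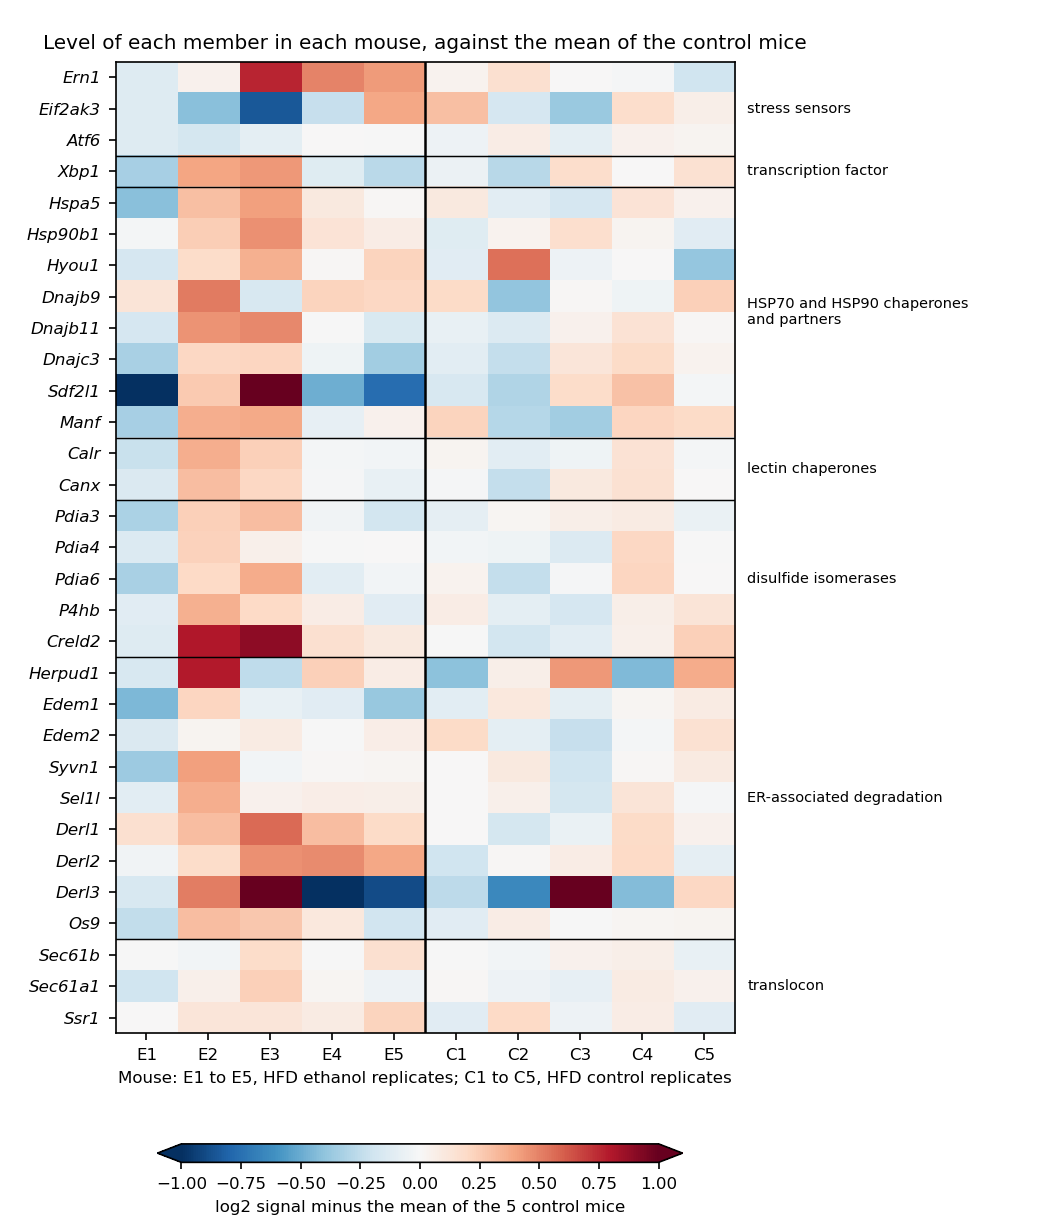
Log2 signal of each of the 31 genes in each mouse minus the mean of the 5 control mice, by role, with the ethanol mice (E1 to E5) left of the control mice (C1 to C5). Colours stop at -1 and 1. Columns E2 and E3 are red and column E1 is blue, in part faintly, for most chaperones and isomerases. Control mice are coloured as well, among other genes in Derl3, Hyou1, Herpud1, Dnajb9 and Manf. Sdf2l1 and Derl3 have the widest range.

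For 5 of the 8 chaperones of the HSP70 and HSP90 families and their partners, ethanol replicates 2 and 3 were the highest mice. Levels here and below are log2 signals relative to the 75th percentile of the array. Hspa5 encodes BiP, the HSP70 chaperone that also keeps the sensors inactive, and it stood at 5.51, 6.22, 6.33, 6.02 and 5.93 in ethanol replicates 1 to 5, against 6.02, 5.82, 5.75, 6.05 and 5.96 in control replicates 1 to 5. By this probe the highest and lowest livers of all 10 were both ethanol livers, and the log2 fold change was 0.08 ± 0.15 (SE, adjusted p = 0.826 in limma), with a 95% interval from -0.24 to 0.40. Its other 2 probes gave 0.10 and 0.03 and ordered the mice differently. In one, control replicate 2 was highest at 4.89 and control replicate 5 lowest at 4.32, and in the other, control replicate 2 at 4.01 lay above ethanol replicate 2 at 3.96. Hsp90b1 encodes GRP94, the HSP90 of the ER, and stood at 6.25, 6.52, 6.73, 6.41 and 6.34 in ethanol mice, against 6.15, 6.31, 6.44, 6.30 and 6.16 in control mice. The groups overlapped, with ethanol replicates 2 and 3 above every control (0.18 ± 0.10, SE, adjusted p = 0.448).

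Sdf2l1, a partner of the DnaJ protein ERdj3, had the widest range of these chaperones. It stood at -0.81, 0.48, 1.26, -0.27 and -0.54 in ethanol mice, against 0.06, -0.08, 0.40, 0.51 and 0.20 in control mice. Ethanol replicates 1, 4 and 5 lay below all controls and ethanol replicate 3 above them, and the mean difference was -0.20 ± 0.35 (SE). It was -0.50 without ethanol replicate 3, 0.01 without ethanol replicate 1 and -0.76 without the arrays of slide column 1 (adjusted p = 0.237 in limma). Dnajb11, which encodes ERdj3 itself, stood at 2.83, 3.45, 3.48, 2.99 and 2.85 in ethanol mice, against 2.93, 2.87, 3.04, 3.15 and 3.01 in control mice. Ethanol replicates 2 and 3 were on top by this probe and by another, which gave 0.17. A dimmer probe of Dnajb11 gave -0.06, with control replicate 3 highest at -0.47, above ethanol replicates 2 and 3 at -0.78 and -0.90. Dnajc3, whose product inhibits PERK and delivers clients to BiP, had 1.18, 1.72, 1.72, 1.46 and 1.16, against 1.40, 1.27, 1.63, 1.70 and 1.55 in control mice. Manf, an ER-resident and secreted protein that binds BiP, ran from 2.00 to 2.71 in ethanol mice and from 1.99 to 2.56 in control mice.

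In Dnajb9 and in the brightest probe of Hyou1 the order of the mice was another. Dnajb9 encodes ERdj4, which holds IRE1 inactive together with BiP, and had 1.96, 2.35, 1.67, 2.06 and 2.04 in ethanol mice, against 2.02, 1.44, 1.84, 1.79 and 2.07 in control mice. Here ethanol replicate 3 was the lowest of the ethanol mice. Hyou1, a large HSP70 relative that recharges BiP with ATP, was highest in control replicate 2 at -1.37, while the ethanol mice ran from -2.10 to -1.57. Its 3 probes gave fold changes of 0.12, -0.17 and 0.19 on the log2 scale. In the third probe ethanol replicates 2 and 3 were the highest mice, at -1.93 and -1.77, and ethanol replicate 1 the lowest at -3.14, and in the second ethanol replicate 3 was highest at -2.86 and ethanol replicate 1 lowest at -3.82.

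**Figure D3:**
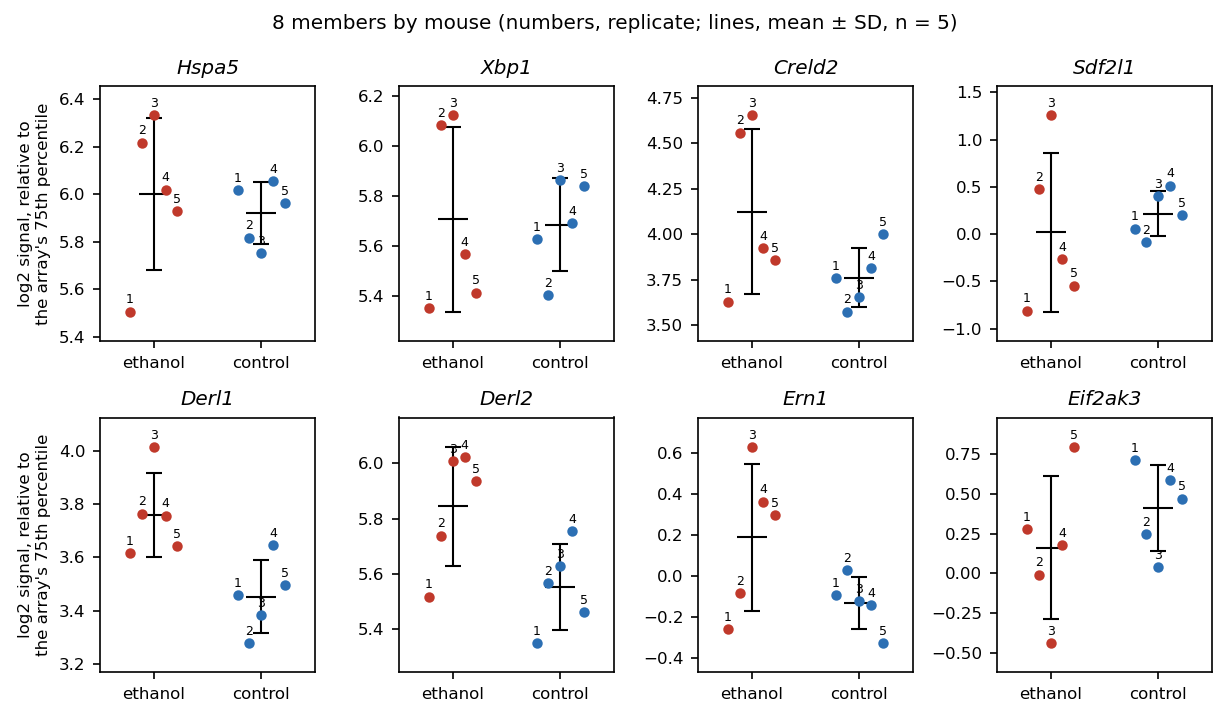
Log2 signal of 8 genes in each mouse, relative to the 75th percentile of the array, with ethanol left of control, replicate numbers at the points and lines for the mean ± SD (n = 5). In Hspa5, Xbp1, Creld2 and Sdf2l1 ethanol replicates 2 and 3 lie above the other ethanol mice, whereas the groups of Derl1 and Derl2 overlap with a higher mean in ethanol, and Ern1 and Eif2ak3 order the mice differently.

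The lectin chaperones calreticulin (Calr) and calnexin (Canx), which hold newly made glycoproteins, were likewise highest in ethanol replicates 2 and 3 by the brightest probe. Calr stood at 4.19, 4.78, 4.66, 4.40 and 4.38 in ethanol mice, against 4.44, 4.31, 4.38, 4.56 and 4.39 in control mice. Canx stood at 5.01, 5.47, 5.37, 5.14 and 5.08, against 5.14, 4.92, 5.25, 5.31 and 5.16 in control mice. Ethanol replicate 1 was the lowest mouse for Calr, and control replicate 2 for Canx. The log2 fold changes of Calr and Canx were 0.07 ± 0.11 and 0.06 ± 0.11 (SE), with neither passing (adjusted p = 0.813 and 0.839 in limma). A second probe of Canx gave 0.14, with 4.02, 4.24, 4.07, 4.04 and 4.08 in ethanol mice, against 3.91, 3.90, 4.00, 4.00 and 3.91 in control mice. By that probe the groups did not overlap, and ethanol replicate 5 lay above ethanol replicate 3. The brightest probes did not overlap in 3.05% of all genes.

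Of the disulfide isomerase group, Creld2 had the largest difference. CRELD2 is an ER protein induced by ER stress with reported isomerase activity, and its gene stood at 3.63, 4.56, 4.65, 3.92 and 3.86 in ethanol mice, against 3.76, 3.57, 3.65, 3.81 and 4.00 in control mice. The log2 fold change of 0.36 ± 0.20 (SE, adjusted p = 0.435 in limma) rested on ethanol replicates 2 and 3 and was 0.04 without them. Pdia3, the isomerase that works with the lectins, had 2.62, 3.18, 3.25, 2.91 and 2.76 in ethanol mice, against 2.85, 2.96, 3.00, 3.02 and 2.88 in control mice, and its difference was 0.0033 with an interval from -0.27 to 0.27. Pdia6 had 5.57, 6.09, 6.27, 5.79 and 5.87, against 5.93, 5.66, 5.88, 6.11 and 5.90 in control mice. P4hb, the classical isomerase that also serves as a subunit of the microsomal triglyceride transfer protein, differed by 0.08 ± 0.11 (SE), and Pdia4 by 0.03 ± 0.09 (SE).

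Among genes of ER-associated degradation, the derlins Derl1 and Derl2 differed most between the groups relative to their error. Derlins are membrane proteins that help to pull misfolded proteins out of the ER. Derl1 stood at 3.61, 3.76, 4.02, 3.76 and 3.64 in ethanol mice, against 3.46, 3.28, 3.38, 3.65 and 3.49 in control mice. Only control replicate 4 reached into the range of the ethanol mice, and the log2 fold change was 0.31 ± 0.10 (SE, 1.24-fold, unadjusted p = 0.0103, adjusted p = 0.279 in limma). It ran from 0.19 to 0.48 over the alternatives and was 0.22 without the arrays of slide column 1, 0.19 within slide 1 and 0.48 within slide 3.

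Derl2 stood at 5.52, 5.74, 6.01, 6.02 and 5.94 in ethanol mice, against 5.35, 5.57, 5.63, 5.76 and 5.46 in control mice. Ethanol replicates 3, 4 and 5 lay above every control, and the log2 fold change was 0.29 ± 0.12 (SE, 1.22-fold, unadjusted p = 0.0312, adjusted p = 0.335 in limma). Its second probe, listed under another transcript, gave 0.39. Derl3, the third derlin and a strongly stress-induced one, had the widest spread of all 31 genes, with -1.39, -0.72, 0.50, -2.29 and -2.13 in ethanol mice, against -1.50, -1.88, -0.09, -1.67 and -1.03 in control mice. Its difference was 0.03 ± 0.53 (SE, 95% interval from -1.15 to 1.21), and it was -0.70 without the arrays of slide column 1, -0.94 within slide 1 and 0.95 within slide 3.

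No degradation gene passed, the derlins included. Syvn1, the ubiquitin ligase HRD1, had 4.37, 5.15, 4.71, 4.75 and 4.76 in ethanol mice, against 4.74, 4.83, 4.53, 4.75 and 4.83 in control mice, so that ethanol replicate 2 alone stood above the controls. Its partner Sel1l differed by 0.09 ± 0.10 (SE) and Os9, a lectin that hands glycoproteins to that ligase, 0.05 ± 0.12 (SE). Herpud1, a membrane scaffold of the same complex, varied as much in control as in ethanol mice, with 5.18, 6.14, 5.09, 5.59 and 5.43, against 4.93, 5.40, 5.78, 4.91 and 5.72 in control mice, and differed by 0.14 ± 0.24 (SE). Edem1, which marks misfolded glycoproteins by trimming mannose, was 1.51, 2.18, 1.89, 1.85 and 1.58 in ethanol mice, against 1.85, 2.07, 1.86, 1.98 and 2.04 in control mice (-0.16 ± 0.12, SE, adjusted p = 0.572). Edem1 was lower with ethanol under every alternative, from -0.32 to -0.09, without passing in any. Edem2, which starts that trimming, had 0.0036 ± 0.09 (SE).

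By the brightest probe, the 3 genes of the translocon differed by at most 0.11 between the groups. Sec61b, the small beta subunit of the channel, ran from 5.65 to 5.86 in ethanol mice and from 5.60 to 5.73 in control mice. Sec61a1, which encodes the pore, differed by 0.01 ± 0.09 (SE), and its dimmer probes gave 0.23 and 0.29. Ssr1, a subunit of the translocon-associated protein complex, had 0.11 ± 0.08 (SE).

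The sensors did not order the mice as the chaperones did. Ern1, which encodes IRE1, stood at -0.26, -0.09, 0.63, 0.36 and 0.29 in ethanol mice, against -0.09, 0.03, -0.13, -0.14 and -0.33 in control mice. Ethanol replicates 3, 4 and 5 lay above every control while replicates 1 and 2 did not (0.32 ± 0.16, SE, adjusted p = 0.402 in limma). Eif2ak3, which encodes PERK, stood at 0.28, -0.01, -0.44, 0.18 and 0.80 in ethanol mice, against 0.71, 0.25, 0.04, 0.59 and 0.47 in control mice. Ethanol replicate 5 was the highest of the 10 mice and ethanol replicate 3 the lowest, and the difference was -0.25 ± 0.21 (SE, adjusted p = 0.61). It was -0.10 without ethanol replicate 3, 0.0076 without the arrays of slide column 1 and 0.06 with the array column as a covariate. Atf6 varied little, with 1.32, 1.28, 1.35, 1.45 and 1.45 in ethanol mice, against 1.40, 1.53, 1.35, 1.49 and 1.47 in control mice (-0.08 ± 0.07, SE, adjusted p = 0.611).

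Xbp1 encodes the transcription factor whose mRNA is spliced by IRE1 to give its active form. It stood at 5.35, 6.08, 6.12, 5.57 and 5.41 in ethanol mice, against 5.63, 5.41, 5.86, 5.69 and 5.84 in control mice. Ethanol replicates 2 and 3 were the highest mice and ethanol replicate 1 the lowest by this probe, and the difference was 0.02 ± 0.17 (SE, adjusted p = 0.963 in limma). Its other probes gave 0.04 and 0.05, with ethanol replicates 2 and 3 again highest but control replicate 2 lowest, at 1.14 and 0.73. The files do not say which splice form a probe detects, so these values speak of total Xbp1 mRNA at most.

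The 11 genes with an exact match to the ERSE or ERSE-II were set beside the 15 with a window but no such match. Their median deviation from the control mean was -0.17, 0.37, 0.37, -0.0063 and -0.03 in ethanol replicates 1 to 5, and -0.01, -0.13, 0.05, 0.13 and 0.04 in control replicates 1 to 5. For the 15 genes without a match it was -0.13, 0.23, 0.18, -0.0044 and 0.06 in ethanol mice, and -0.02, -0.02, -0.0076, 0.06 and -0.0077 in control mice. Both sets were highest in ethanol replicates 2 and 3, which took the top 2 places for 7 of the 11 genes and 4 of the 15. The median log2 fold changes were 0.07 and 0.05, and no test was made between the sets.

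Of 72 other genes of the pathway, all of which were measured, 0 passed in limma after adjustment over all genes. An unadjusted p under 0.05 in limma was reached by 5 of the 72, where 13.3% of all genes reached it. All 5 were higher with ethanol, and 7.98% of all genes were higher at that level. For 49 of the 72 the log2 fold change was above 0. Cnpy2, an ER protein of the saposin-like family, had 4.28, 4.41, 4.53, 4.37 and 4.23 in ethanol mice, against 3.97, 4.22, 4.14, 4.06 and 4.02 in control mice. The groups did not overlap (0.28 ± 0.08, SE, adjusted p = 0.232), and the same held for the oligosaccharyltransferase subunits Stt3b (0.22 ± 0.07, SE, adjusted p = 0.294) and Dad1 (0.16 ± 0.07, SE, adjusted p = 0.338), beside 1.94% of all genes.

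In the folding list of 20 genes the next smallest p values belonged to Fkbp11, a prolyl isomerase, which differed by 0.47 ± 0.18 (SE), and Dnajc10, a reductase with a J domain, with -0.16 ± 0.07 (SE). In the degradation list of 15 they belonged to Faf2 with 0.18 ± 0.07 (SE), Nploc4 with 0.18 ± 0.09 (SE) and Ubxn4 with 0.13 ± 0.08 (SE), all linked to the VCP ATPase that extracts proteins from the membrane. In the list of 22 translocon and glycosylation genes Ssr4 followed, with 0.23 ± 0.11 (SE). By mouse, ethanol replicate 2 lay above all controls for 38 of the 72 genes (30% of all genes) and ethanol replicate 3 for 36 (25%). Ethanol replicate 1 lay below all controls for 24 (17.8%) and above for 12 (21.8%). Ethanol replicate 5 lay above all controls for 25 of the 72 (21.9%), where it did so for 5 of the 31. Replicates 2 and 3 took the top places for 22 of the 72 genes, beside 10.6% of all genes.

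Genes downstream of PERK ordered the mice in another way. Atf4, the transcription factor that PERK signalling raises, had 5.39, 5.30, 5.39, 5.52 and 6.01 in ethanol mice, against 5.32, 5.24, 5.09, 5.49 and 5.10 in control mice. Its target Trib3 had 3.01, 3.05, 3.28, 2.25 and 3.64 in ethanol mice, against 2.67, 2.62, 2.08, 2.59 and 2.75 in control mice. Ddit3, the gene of CHOP, had -0.86, -0.86, -1.29, -1.17 and -0.19, against -0.71, -1.26, -1.61, -0.86 and -0.78 in control mice. All 3 genes were highest in ethanol replicate 5 and not in the mice with the highest Hspa5. Ethanol replicate 5 was also highest for Eif2ak3, at 0.80 against 0.71 in control replicate 1. A link between Eif2ak3 and these genes was not tested, and PERK activity was not measured. The differences were 0.27 ± 0.14 for Atf4, 0.50 ± 0.23 for Trib3 and 0.17 ± 0.23 for Ddit3 (SE), and none passed (adjusted p = 0.419, 0.379 and 0.766 in limma). Rtcb, the ligase that joins spliced Xbp1 mRNA, had 0.15 ± 0.09 (SE).

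Hepatocyte markers were measured in all 10 arrays, and their summed signal ran from 4554 to 4975 in ethanol mice and from 4266 to 5615 in control mice, as multiples of the 75th percentile. Alb, Serpina1a and Trf make up most of that sum. Some single hepatocyte markers, named here after their values were seen, followed the members' pattern by mouse, and others went the other way. On the log2 scale Cps1 had 0.90, 3.67, 3.52, 2.65 and 1.30 in ethanol mice, against 1.97, 2.17, 2.79, 2.42 and 3.02 in control mice. Hnf4a had 5.95, 6.79, 6.87, 6.61 and 6.34 in ethanol mice, against 6.42, 6.66, 6.45, 6.40 and 6.49 in control mice. Fgb had 8.18, 8.80, 8.83, 8.53 and 8.18 in ethanol mice, against 8.53, 8.59, 8.55, 8.76 and 8.64 in control mice. In these 3 of 10 markers ethanol replicates 2 and 3 were the highest mice and ethanol replicates 1 and 5 the lowest. For Apob, in contrast, ethanol replicates 3 and 2 were the lowest mice, at 7.20 and 7.34. Ethanol replicate 2 was the lowest mouse for Apoa1 and Trf, at 6.59 and 9.44. Ttr was lowest in ethanol replicate 3, at 8.98, and Alb was highest in control replicate 2. Plasma and B cells, which are rich in the same ER genes, had a summed marker signal of 1.19 to 1.64 in ethanol mice and 1.38 to 1.81 in control mice over 7 of 10 genes. It was 1.23 and 1.19 in ethanol replicates 2 and 3, the lowest of the 10 mice. Pancreatic acinar markers reached 4.56 to 7.39 in ethanol mice and 4.53 to 7.43 in control mice over 4 of 10 genes, with 7.06 and 7.39 in ethanol replicates 2 and 3, and 5 of the 10 were well above background in no mouse. Kupffer cell markers ran from 63.3 to 127.6 in ethanol mice, with 63.3 and 80.3 in ethanol replicates 2 and 3 and 127.6 in ethanol replicate 1, and from 69.4 to 119.2 in control mice. Stellate cell markers ran from 100.1 to 128.4 in ethanol and from 119.6 to 153.8 in control mice, with 8 of 10 lower in ethanol, and sinusoidal endothelial markers from 44.0 to 49.6 in ethanol and from 42.4 to 53.7 in control mice. The part of other cell types in the pattern by mouse was not tested.

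**Figure D4:**
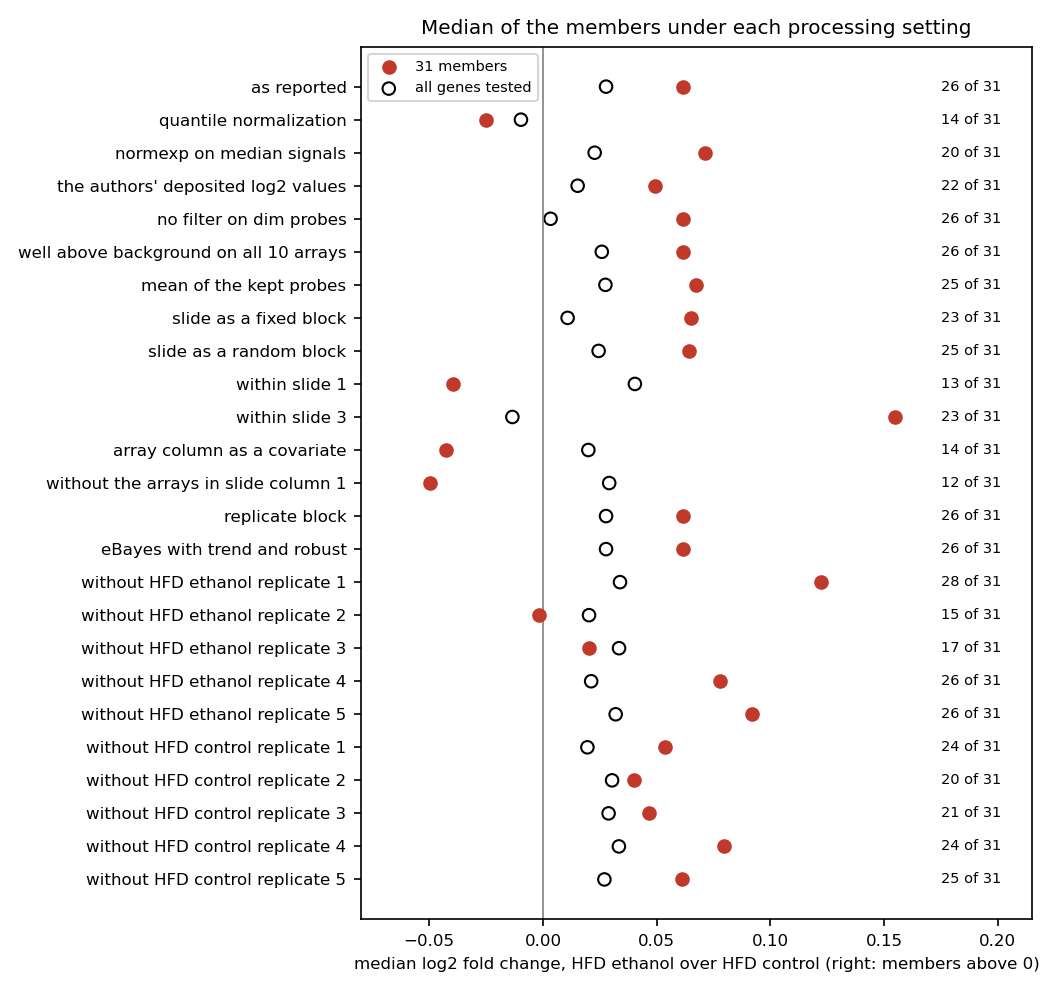
Median log2 fold change of the 31 genes (filled) and of all genes tested (open) in the setting reported and under 24 alternatives, with the count of the 31 genes above 0 at the right. The median of the 31 genes falls below 0 in 5 settings, among them quantile normalization and the fits that leave out or adjust for slide column 1, and is highest within slide 3.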

How the data were processed

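Liver RNA of 10 mice was hybridised to 10 1-colour Agilent arrays. The authors deposited scanner tables of spot intensity, made with Agilent Feature Extraction 10.7.3.1 per the file headers, and a table of log2 values, whose differences between arrays matched log2 processed intensity (r of 1 for each array). Its column medians were 0.02, -0.0037, -0.01, -0.0020 and 0.05 for ethanol and -0.12, 0.08, 0.02, -0.07 and -0.07 for control replicates 1 to 5. How the table was made and how each probe was centred is not stated in those sources.

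Processed intensities were scaled to the 75th percentile of each array, taken without control spots. They were then floored at 4 signal units and put on the log2 scale, and control spots and spots flagged as outliers were dropped. Probes well above background on at least 4 of 5 arrays of 1 group were kept (31110 of 56605). Names came from RefSeq (GRCm38.p6) by accession, for 32994 probes. The brightest kept probe stood for a gene. All 31 members were well above background on all 10 arrays, and 16 had several kept probes, which differed in sign for 3. Fits used limma 3.58.1 in R 4.3.3 and were tested on simulated data. SE is the moderated standard error.

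The 10 arrays lay on 3 slides, each scanned at 1 time. Slide 1 held ethanol replicate 4 and control replicates 4 and 5, slide 2 control replicates 1 and 3, and slide 3 ethanol replicates 1, 2, 3 and 5 and control replicate 2. The 75th percentile of intensity ran from 298.0 to 347.6 in ethanol and from 279.9 to 387.4 in control mice. There were 0 saturated spots, and precision is limited by how many arrays there are.

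The members, lists and tests were chosen with earlier results of these data known. Named genes are the 31 members, Atf4, Ddit3 and up to 3 genes with the smallest p of each other list. Mean spot signals were not used here, so normexp took median signals. Fcn3, of the endothelial list, had no match.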

Additional observations from a re-analysis of the deposited data

How the results depend on the processing

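None of the 31 genes passed under any of 24 alternatives in limma (smallest adjusted p = 0.152, with slide as a random block), and 0 to 4 reached an unadjusted p under 0.05. None of the 72 other pathway genes passed either. Of 744 values of single genes under the alternatives, 119 had another sign than reported, none of them past the threshold. For 9 of 31 genes the sign was the same throughout, higher for Ern1, Hsp90b1, Dnajb9, Creld2, Sel1l, Derl1 and Derl2 and lower for Atf6 and Edem1. The cause of the differences below was not tested. The count of the 31 genes above 0, reported as 26, was 14 with quantile normalization (47.6% of all genes) and 13 within slide 1 (56.7%). It was 14 with a covariate for array column (55.0%) and 12 when both column 1 arrays were dropped (56.2%). It ran from 15 (without ethanol replicate 2) to 28 with 1 mouse left out, and was 17 without ethanol replicate 3. Their median ran from -0.05 to 0.15, and from -0.0018 to 0.12 with 1 mouse left out. The count with a larger SD in ethanol, reported as 26 and examined after seeing the data, was 13 with both column 1 arrays dropped and ran from 23 to 28 with 1 mouse left out. Over all genes, where 3 passed, 7 passed with normexp, 12 with slide as a random block, 7 with a trended and robust variance, and 0 without a filter on dim probes, with slide as a fixed block, within slide 1, within slide 3, with the array column as a covariate or with the replicate block. The count ran from 0 to 7 with 1 mouse left out, with 0 without ethanol replicate 1, control replicate 4 or control replicate 5, 1 without ethanol replicate 2, 2 without control replicate 1 or 3 and 7 without ethanol replicate 4. Whether replicate numbers pair the mice was not settled. Deviations of same-numbered mice correlated at 0.32, 0.15, 0.31, 0.06 and -0.11 over all genes, which cannot exclude a pairing. Not every mouse correlated best with its own number. With the replicate block the median of the 31 genes was 0.06 and 0 of them passed. Signal was well above background for each of the 31 genes on all 10 arrays.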
